A study of Mus musculus with 12 samples.

Results

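The 9 genes described here encode the ATP-dependent proteases of mouse mitochondria (Clpx, Clpp, Lonp1, Afg3l2 and Yme1l1) and the chaperones that pull in and fold imported proteins (Hspa9, Grpel1, Grpel2 and Trap1). They are 9 of the 55836 gene symbols listed in the files, and all 9 were among the 13620 genes with enough reads to be tested. They were chosen from a list of names with earlier results of these same libraries in view, so their fold changes and p-values are given as a description and support nothing beyond it. Livers of the cinnabarinic acid group (MD+CA) held 3.10-fold more Clpx and 0.628 times the Grpel2 of the vehicle group on the same diet (MD), and the other 7 genes passed the threshold of the test over all genes in none of the comparisons. With any 1 library left out, Clpx still passed in MD+CA against MD, and Grpel2 passed in none of these fits. Hspa9 was lower in all 4 libraries of MD than in all 4 of the control diet (CD), with a wide spread.

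Poly(A)-selected RNA from snap-frozen liver was sequenced in 12 libraries, 4 in each of 3 groups, and all groups were of AhR-floxed mice, in which the gene for the aryl hydrocarbon receptor carries loxP sites. The labels name no Cre driver. Mice entered the study at 8 weeks of age and stayed on their diet for 20 weeks. The control diet of the CD group took 10 kcal% from fat and was matched for sucrose, and the labels do not say whether it was injected. The MD group ate a diet that took 40 kcal% from fat and 20 kcal% from fructose, with cholesterol added at 2%, and received vehicle (0.2% DMSO in saline) by intraperitoneal injection 3 times a week. The MD+CA group ate the MD diet and received cinnabarinic acid, a tryptophan metabolite known as a ligand of that receptor, at 12 mg/kg on the same schedule. The labels give no time of day for collection and do not say that each library came from a separate mouse, so the p-values speak of the spread among libraries, which may be technical. All libraries are labelled male, yet each held between 5122 and 12865 reads of Xist and no read of the Y-linked genes Ddx3y, Kdm5d, Uty and Eif2s3y, where a count of 0 allows up to 0.330 CPM (reads of a gene scaled to the size of its library).

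Between 9089586 and 14492587 reads were assigned to genes per library. The 7 hepatocyte markers, Alb and Apoa1 among them, were all detected and summed to 54177 to 69417 CPM for CD, 36976 to 64020 CPM for MD and 47535 to 67236 CPM for MD+CA. Reads of the mitochondrial genome made up 5.72 to 6.63% of each CD library and 4.98 to 7.94% of each MD+CA library. In MD the share was 10.7% in replicate 1, 17.5% in replicate 2, 6.16% in replicate 3 and 9.37% in replicate 4, so MD replicate 2 stood apart from the rest. The fragment length allowance is the number of bases by which Salmon, the program that assigned the reads, shortened a long transcript to its effective length. It was 246 to 280 bases for CD, 221 to 261 for MD and 227 to 276 for MD+CA. It was shortest in MD replicate 2 (221 bases), MD+CA replicate 1 (227 bases) and MD replicate 1 (230.0 bases).

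Nearly all mitochondrial proteins are made in the cytosol and threaded through the membranes as unfolded chains. In the matrix the HSP70 protein encoded by Hspa9 binds the incoming chain and pulls it in with repeated cycles of ATP hydrolysis, and the GrpE-like proteins Grpel1 and Grpel2 release its spent nucleotide. Proteins that fail to fold, are damaged or are no longer needed are unfolded and cut by ring-shaped ATP-dependent proteases. These are LONP1 and CLPXP in the matrix, and the AAA proteases with the subunits AFG3L2 and YME1L1 in the inner membrane. Hepatocytes are rich in mitochondria, and their matrix holds the first enzymes of the urea cycle and of haem synthesis.

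Promoter sequences from RefSeq (GRCm38.p6, an older build than the GRCm39 of the files) were at hand for 6 of the 9 genes, namely Clpx, Clpp, Lonp1, Yme1l1, Grpel1 and Trap1. The 250 bases before the annotated start of Clpx (chr9:65294010-65294259, plus strand), Grpel1 (chr5:36464935-36465184, plus strand) and Yme1l1 (chr2:23156255-23156504, plus strand) are shown because Clpx differed most between the groups while Grpel1 and Yme1l1 varied together over the libraries, and because these 3 held a CCAAT box at nearly the same distance from the start. Capitals mark the CCAAT box (CCAAT) and the GC box (GGGCGG) on either strand, so that ATTGG and CCGCCC mark boxes on the minus strand.

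Clpx: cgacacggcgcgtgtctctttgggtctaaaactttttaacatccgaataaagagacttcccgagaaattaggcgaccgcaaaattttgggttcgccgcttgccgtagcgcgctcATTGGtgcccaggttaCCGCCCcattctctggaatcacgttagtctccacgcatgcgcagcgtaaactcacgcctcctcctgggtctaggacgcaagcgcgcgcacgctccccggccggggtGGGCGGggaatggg

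Grpel1: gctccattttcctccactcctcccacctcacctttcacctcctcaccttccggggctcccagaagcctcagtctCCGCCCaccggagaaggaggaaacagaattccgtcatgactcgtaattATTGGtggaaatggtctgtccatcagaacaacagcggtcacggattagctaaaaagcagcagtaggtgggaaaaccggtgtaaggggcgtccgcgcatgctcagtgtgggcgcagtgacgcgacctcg

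Yme1l1: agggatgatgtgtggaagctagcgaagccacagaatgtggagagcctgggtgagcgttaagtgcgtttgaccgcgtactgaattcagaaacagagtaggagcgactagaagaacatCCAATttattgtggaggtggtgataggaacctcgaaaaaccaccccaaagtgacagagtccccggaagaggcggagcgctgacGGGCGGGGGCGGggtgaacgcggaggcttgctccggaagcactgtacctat

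The CCAAT box began 136 bases before the start in Clpx, 128 in Grpel1 and 134 in Yme1l1. It was absent from the same window of the other 3 genes and present in 33.8% of the 32851 mouse promoters of the table. GC boxes were held by 5 of the 6 genes (all but Clpp) against 32.7% of promoters; no motif searched contains another. An E-box (CACGTG) was found only in Lonp1, 36 bases before the start (6.02% of promoters), and a nuclear receptor element (AGGTCA) only in Trap1 (14.02% of promoters). None of the 6 windows held the amino acid response element (TGATGNAA, 3.45% of promoters) or the heat shock element core (GAANNTTC, 6.69% of promoters). All motifs were read on both strands over the same 250 bases, and a match describes letters and not binding.

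Levels between genes were compared per length, in TPM, which scales reads for transcript length and library size. Hspa9 stood first in every group, with 352 ± 51.6 TPM for CD, 171 ± 101.1 TPM for MD and 339.6 ± 59.7 TPM for MD+CA (SD, n = 4), and its libraries overlapped those of no other member in any group. In CD the other 8 followed between 49.8 ± 11.1 TPM (Grpel1) and 27.98 ± 3.92 TPM (Afg3l2), in the order Grpel1, Trap1, Lonp1, Grpel2, Clpx, Clpp, Yme1l1 and Afg3l2. Every neighbouring pair among these 8 overlapped. In MD the order was Trap1, Clpp, Grpel1, Lonp1, Grpel2, Clpx, Afg3l2 and Yme1l1, from 41.8 ± 11.2 to 19.7 ± 8.66 TPM, again with every neighbouring pair overlapping. In MD+CA Clpx came second, at 92.2 ± 11.04 TPM, above all libraries of the next gene, Grpel1 (46.8 ± 13.8 TPM). Grpel2 came last at 22.6 ± 5.06 TPM, and the neighbours from Grpel1 down to Grpel2 overlapped.

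**Figure D1:**
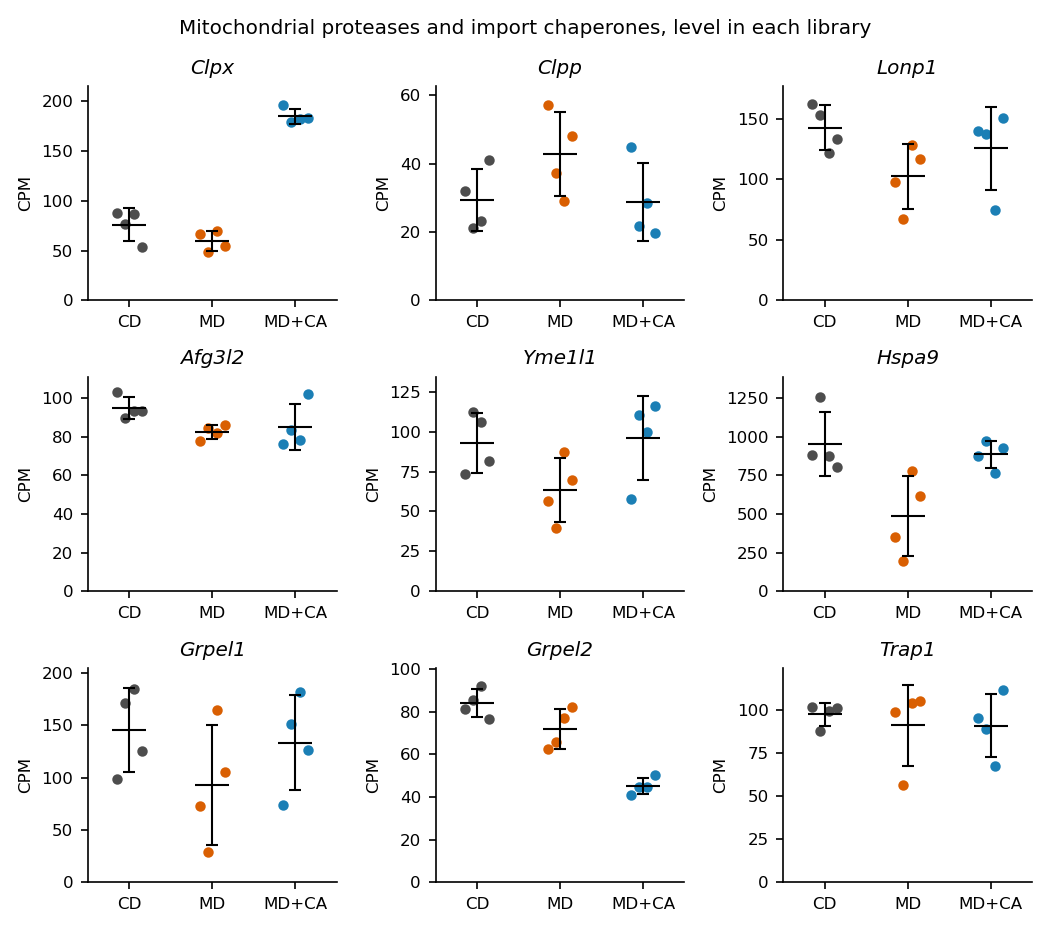
Level of each of the 9 genes in CPM in the 4 libraries of CD, MD and MD+CA. Points are libraries, horizontal bars are group means and error bars are SD. The 4 MD+CA libraries of Clpx sit between 179.6 and 196.0 CPM, above every other library, and those of Grpel2 sit between 41.2 and 50.3 CPM, below every other library.

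Clpx encodes the ring-shaped unfoldase that recognises substrates, unfolds them and feeds them into the proteolytic chamber. It also acts on the first enzyme of haem synthesis. In CD the 4 libraries held 88.2, 76.7, 86.9 and 53.3 CPM, in MD 66.4, 48.2, 69.6 and 54.8 CPM, and in MD+CA 196.0, 179.6, 182.0 and 183 CPM. All MD+CA libraries lay above all others, while CD and MD overlapped. The level was 3.10-fold higher in MD+CA than in MD, a log2 fold change of 1.63 with an SE of 0.21 (adjusted p = 0.00158), and 2.43-fold higher than in CD (1.28 ± 0.20, adjusted p = 0.0127). Between MD and CD the log2 fold change was -0.35 ± 0.20 (adjusted p = 0.334). These adjusted p-values come from edgeR's quasi-likelihood test with Benjamini-Hochberg adjustment over the 13620 genes and a threshold of 0.05. The same holds for all others of fold changes, where ± is the SE. With CD replicate 4, the lowest of the CD libraries, left out, the difference from CD was 1.14 and just missed the threshold (adjusted p = 0.0501).

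Clpp encodes the peptidase subunit that forms the chamber to which CLPX docks. Its levels were 31.9, 21.1, 23.3 and 41.1 CPM in CD, 57.1, 37.1, 29.1 and 47.9 CPM in MD and 44.9, 21.6, 28.5 and 19.8 CPM in MD+CA. The 3 groups overlapped, and none of the comparisons passed the threshold. The log2 fold change was 0.54 ± 0.29 in MD against CD (adjusted p = 0.307), -0.58 ± 0.29 in MD+CA against MD (adjusted p = 0.251) and -0.03 ± 0.29 in MD+CA against CD (adjusted p = 0.992).

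The ratio of Clpx to Clpp, unfoldase to peptidase, was taken per length from TPM. It was 1.07, 1.75, 1.69 and 0.525 in CD, 0.496, 0.528, 1.23 and 0.479 in MD and 1.69, 3.67, 3.12 and 4.83 in MD+CA. The lowest MD+CA library, replicate 1, lay below the highest CD library, and all MD+CA libraries lay above all MD libraries. Against Lonp1, the ratio of Clpx was 0.892 ± 0.249 for CD, 0.964 ± 0.158 for MD and 2.72 ± 1.02 for MD+CA, with no MD+CA library (2.11 to 4.25) reaching down to the others (0.617 to 1.21). As ratios of the values that chose the genes, these are descriptions.

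Lonp1 encodes the other soluble matrix protease, known for degrading oxidised proteins and the packaging factor of mitochondrial DNA. The libraries held 162, 153, 122 and 134 CPM in CD, 97.6, 67.1, 128 and 117 CPM in MD and 139.7, 138, 75.1 and 150.3 CPM in MD+CA. Replicate 3 of MD+CA lay far below the other 3 libraries of its group. The groups overlapped, and the log2 fold changes were -0.48 ± 0.25 in MD against CD (adjusted p = 0.293), 0.30 ± 0.25 in MD+CA against MD (adjusted p = 0.496) and -0.18 ± 0.25 in MD+CA against CD (adjusted p = 0.902).

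Neither inner membrane protease subunit passed the threshold in any comparison. Afg3l2, the matrix-facing subunit that also matures a mitochondrial ribosomal protein, held 103.03, 89.4, 93.2 and 93.1 CPM in CD, 77.5, 84.7, 81.7 and 85.7 CPM in MD and 76.2, 83.5, 78.4 and 102.004 CPM in MD+CA. All MD libraries lay below all CD libraries, but the difference was small (log2 fold change -0.20 ± 0.17, adjusted p = 0.509). MD+CA overlapped both other groups.

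Yme1l1, whose protease faces the intermembrane space and processes the fusion protein OPA1, held 73.2, 112, 105.9 and 81.3 CPM in CD, 56.7, 39.8, 86.9 and 69.9 CPM in MD and 57.9, 110.4, 99.6 and 116 CPM in MD+CA. The MD+CA library of replicate 1 lay with the low MD libraries. The log2 fold change was -0.56 ± 0.27 in MD against CD (adjusted p = 0.264), 0.60 ± 0.27 in MD+CA against MD (adjusted p = 0.196) and 0.05 ± 0.27 in MD+CA against CD (adjusted p = 0.988).

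Hspa9, the HSP70 of the import motor, had the widest range of the members in MD on the CPM scale. The libraries held 883, 1254, 872 and 801 CPM in CD, 351, 199, 779.9 and 618 CPM in MD and 874, 971, 766 and 929 CPM in MD+CA. All MD libraries lay below all CD libraries, MD replicate 3 lay just above the lowest MD+CA library, and MD replicates 1 and 2 lay lowest of all 12. The mean was 487 ± 261 CPM in MD against 952 ± 204 CPM in CD (SD, n = 4), a log2 fold change of -0.97 ± 0.34 that did not pass the threshold (adjusted p = 0.151). MD+CA against MD gave 0.86 ± 0.34 (adjusted p = 0.146), and passed the threshold only without MD replicate 3 (1.19, adjusted p = 0.0456). MD+CA against CD gave -0.11 ± 0.33 (adjusted p = 0.972).

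The low Hspa9 values lay in libraries with other marks. MD replicates 2 and 1 held the most Fos, Egr1 and Junb of all libraries. They also had the highest shares of mitochondrial genome reads (17.5% and 10.7%) and 2 of the 3 shortest fragment length allowances. The other library of short allowance, MD+CA replicate 1 (227 bases), held 874 CPM of Hspa9, within the range of CD. With MD replicates 1 and 2 left out, the log2 fold change of Hspa9 was -0.45 in MD against CD (adjusted p = 0.654) and 0.34 in MD+CA against MD (adjusted p = 0.623). The part of these marks in the difference was not tested.

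Grpel1 and Grpel2 encode the exchange factors that free HSPA9 for its next cycle. Grpel1 held 99.05, 172, 185 and 125 CPM in CD, 73.4, 29.3, 165 and 105.2 CPM in MD and 74.3, 151, 182 and 127 CPM in MD+CA. Its groups overlapped throughout, with MD replicate 2 far the lowest. The log2 fold changes were -0.64 ± 0.41 in MD against CD (adjusted p = 0.382), 0.52 ± 0.41 in MD+CA against MD (adjusted p = 0.464) and -0.12 ± 0.41 in MD+CA against CD (adjusted p = 0.973).

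Grpel2 held 81.5, 85.4, 92.3 and 76.7 CPM in CD, 62.5, 65.8, 77.1 and 82.5 CPM in MD and 41.2, 44.6, 44.8 and 50.3 CPM in MD+CA. All MD+CA libraries lay below all libraries of the other groups, and CD and MD overlapped. The log2 fold change was -0.89 ± 0.17 in MD+CA against CD (adjusted p = 0.0313), -0.67 ± 0.17 in MD+CA against MD (adjusted p = 0.0468) and -0.22 ± 0.17 in MD against CD (adjusted p = 0.462). Both calls lay near the threshold. Against MD the call was lost in each of the 12 fits that left out 1 library (log2 fold change -0.73 to -0.60, adjusted p from 0.0535 to 0.112), and against CD in 7 of 12 (-0.95 to -0.84 over all 12).

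The difference of Grpel2 between MD+CA and MD also depended on the scale. Per length, the libraries of MD held 19.6, 17.8, 39.5 and 29.0 TPM and those of MD+CA held 17.8, 22.1, 21.0 and 29.7 TPM, so that the groups overlapped. When the average transcript length of each gene in each library entered the fit as an offset, the log2 fold change was -0.36 (adjusted p = 0.405) in place of -0.67. Against CD it was -0.88 with the offset (adjusted p = 0.160), where CD held 41.6, 42.9, 48.2 and 32.9 TPM, above all MD+CA libraries.

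In the ratio of Grpel1 to Grpel2 per length, CD held 0.904, 1.28, 1.30 and 1.34, MD held 1.07, 0.481, 1.43 and 1.13, and MD+CA held 1.48, 2.47, 2.66 and 1.70. All MD+CA libraries lay above all others, the nearest being MD+CA replicate 1 and MD replicate 3. Hspa9 relative to the sum of both exchange factors was 3.93 ± 0.719 for CD, 2.95 ± 0.394 for MD and 5.17 ± 1.70 for MD+CA (ratio of TPM, SD, n = 4). MD and MD+CA overlapped here (2.55 to 3.46 against 3.38 to 7.48). These ratios rest on the values that chose the genes and carry no test.

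**Figure D2:**
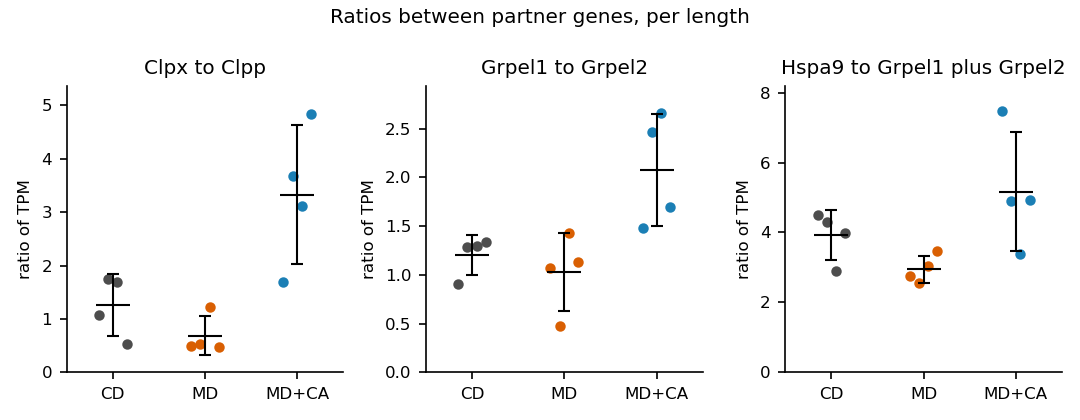
Ratios of TPM between partner genes in each library of CD, MD and MD+CA, with group means and SD. The Clpx to Clpp ratio of MD+CA (1.69 to 4.83) lies above all MD libraries (0.479 to 1.23), and the Grpel1 to Grpel2 ratio of MD+CA (1.48 to 2.66) lies above all CD and MD libraries.

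Trap1 encodes the mitochondrial HSP90, a folding chaperone that also bears on respiration. It held 102.3, 88.0, 99.5 and 101.4 CPM in CD, 99.1, 56.5, 104.4 and 105.3 CPM in MD and 95.5, 89.4, 67.5 and 112 CPM in MD+CA. The groups overlapped, with MD replicate 2 the lowest library. Its log2 fold changes were the smallest of the members in MD against CD (-0.10 ± 0.22, adjusted p = 0.832) and in MD+CA against MD (-0.01 ± 0.22, adjusted p = 0.992), and -0.10 ± 0.22 in MD+CA against CD (adjusted p = 0.949).

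Over the 9 genes, none passed the threshold in MD against CD, where 0.0881% of all genes did (12 of 13620). With DESeq2 and limma voom the 9 genes also gave 0, where these tools called 632 and 328 of all genes. In MD+CA against MD 2 of 9 passed, Clpx higher and Grpel2 lower, against 2.78% of all genes (149 higher and 229 lower). The same 2 genes passed in the same directions in MD+CA against CD, against 0.529% of all genes (30 higher and 42 lower). Both comparisons share the MD+CA libraries. At an unadjusted p under 0.05, 1 of 9 passed in MD against CD (Hspa9), 4 in MD+CA against MD (Clpx, Yme1l1, Hspa9 and Grpel2) and 2 in MD+CA against CD, where the shares of all genes were 20%, 23.2% and 10.5%. The libraries of the groups did not overlap for 2 of 9 in each comparison, where 13.1%, 10.2% and 6.42% of all genes had no overlap. Since the genes were chosen with these contrasts known, nothing is read from these counts.

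Of the 9 log2 fold changes, 8 were negative in MD against CD (all but Clpp), with a median of -0.35 against 0.04 over all genes, of which 46.3% were negative. In MD+CA against MD 6 were positive, with a median of 0.30 against -0.003 over all genes. In MD+CA against CD 7 were negative, with a median of -0.11 against 0.02 over all genes.

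**Figure D3:**
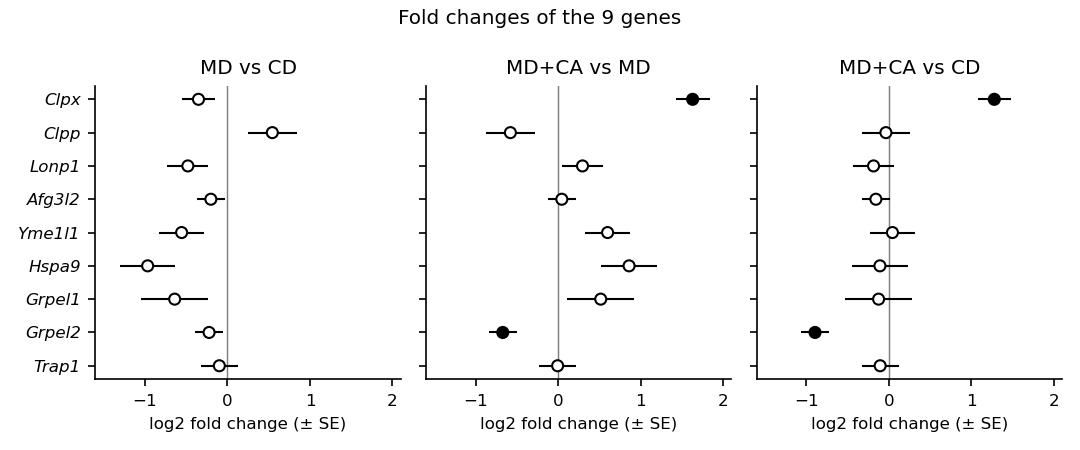
Log2 fold changes of the 9 genes in the 3 comparisons, with SE. Filled points have an adjusted p under 0.05 over all genes tested, which are Clpx (1.63 and 1.28) and Grpel2 (-0.67 and -0.89) in the MD+CA comparisons and none in MD against CD.

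Kupffer cells are the resident macrophages of the liver, and their markers were higher in MD+CA as well. Of 7 Kupffer cell markers, all detected, 4 rose in MD+CA against MD and 2 in MD+CA against CD with edgeR. DESeq2 called 7 in both, limma voom 4 and 5, and all 7 had an unadjusted p under 0.05 in both. Their sum was 193 to 248 CPM for CD, 148 to 256 CPM for MD and 318 to 684 CPM for MD+CA. With edgeR, none of the 7 hepatocyte, 7 stellate, 6 sinusoidal endothelial or 5 bile duct markers passed in any comparison, nor did the 3 lymphocyte, 1 neutrophil and 5 red cell markers that could be tested. At an unadjusted p under 0.05, 3 stellate, 3 endothelial and 1 bile duct marker were higher and 1 hepatocyte marker lower in MD than in CD, and 1 stellate, 1 endothelial and 1 bile duct marker passed there with DESeq2. Between MD+CA and MD, 4 endothelial, 1 stellate and 1 bile duct marker were lower at that level and 2 of the 3 lymphocyte markers, 1 bile duct marker and the neutrophil marker (log2 fold change 2.46) were higher. With DESeq2 1 endothelial and 1 stellate marker passed, both lower. Against CD, 1 lymphocyte, 1 bile duct and 1 stellate marker and the neutrophil marker (2.65) were higher in MD+CA at that level. Of the 4 neutrophil markers 1 was at 0 in all libraries. In bulk liver, a difference in the number of cells of a type and a difference in RNA per cell cannot be told apart, whether higher or lower. The part of the Kupffer cell markers in the differences of Clpx and Grpel2 was not tested.

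Clock genes differed between the same groups. Of 12, 1 rose and 8 fell in MD+CA against MD, and 1 rose and 4 fell in MD+CA against CD. Bmal1 was among the genes most like Clpx, and its log2 fold change was 3.31 ± 0.39 against MD (adjusted p = 0.00132). The genes that fell in both were Ciart, Dbp, Per3 and Tef, with Ciart at -4.35 and -2.90, Dbp at -3.62 and -3.23, Per3 at -3.56 and -2.89 and Tef at -2.27 and -1.67. Hlf (-0.83), Nr1d2 (-1.16), Per1 (-1.98) and Per2 (-1.69) fell in MD+CA against MD and did not pass in the other comparisons. Of 12 fits that left out 1 library, Nr1d2 kept its call in 3, Hlf in 4, Per1 in 8 and Per2 in 11. Ciart, Dbp and Tef kept theirs in 7 against CD. The time of collection is not in the labels, and its part in the levels of Clpx and Grpel2 was not tested.

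The levels of some members followed the fragment length allowance of the libraries. Over the 12 libraries the log2 CPM of Yme1l1 correlated with the allowance at Pearson's r = 0.963 (permutation p = 2e-05, the smallest the resamples can give) and Spearman's rho = 0.916 (permutation p = 6e-05). For Grpel1 r was 0.888 (permutation p = 6e-05) and rho 0.881 (permutation p = 0.0003). Clpp went the other way, with r = -0.791 (permutation p = 0.00376) and rho = -0.797 (permutation p = 0.00334). These p-values are two-sided and not adjusted, and 9 genes were looked at. The permutations ran over all 12 libraries without regard to group, so differences between groups enter these p-values. The 3 libraries of shortest allowance are of MD and MD+CA and none is of CD.

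Hspa9 was less firm, with r = 0.709 (permutation p = 0.0143) and rho = 0.517 (permutation p = 0.0906). For the other 5 genes r lay between 0.0956 (Grpel2) and 0.392 (Afg3l2), with permutation p-values from 0.205 (Afg3l2) to 0.753 (Grpel2). Without MD+CA replicate 1 and MD replicate 2, the libraries farthest from the median allowance, r was 0.953 for Yme1l1, 0.865 for Grpel1, -0.864 for Clpp and 0.755 for Hspa9. The 4 libraries of a group are too few for a value within it. The allowance is itself estimated from the reads of the same libraries.

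**Figure D4:**
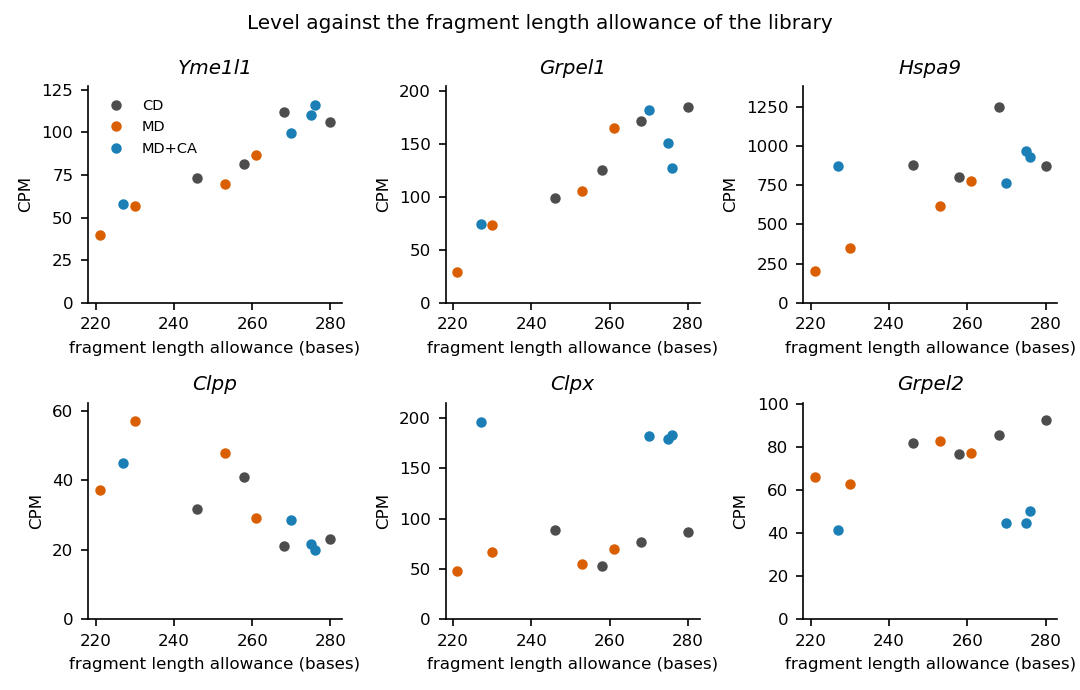
Level in CPM of 6 of the genes against the fragment length allowance of the library in bases, 1 point per library, coloured by group. Over the 12 libraries Yme1l1 and Grpel1 climb with the allowance and Clpp declines. The 4 MD+CA libraries of Clpx (179.6 to 196.0 CPM) and Grpel2 (41.2 to 50.3 CPM) lie apart from the other groups in CPM. Of these MD+CA libraries only replicate 1 (227 bases) has a short allowance, and no MD library is above 261 bases.

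With the allowance as a covariate in the fit, the log2 fold change of Clpx was 1.60 in MD+CA against MD (adjusted p = 0.00416) and 1.28 in MD+CA against CD (adjusted p = 0.00874). That of Grpel2 was -0.79 (adjusted p = 0.0380) and -0.89 (adjusted p = 0.0117). The value for MD against CD went from -0.64 to -0.10 in Grpel1, from -0.56 to -0.14 in Yme1l1 and from 0.54 to 0.18 in Clpp, and from -0.97 to -0.74 in Hspa9. Between MD+CA and MD it went from 0.52 to 0.01 in Grpel1 and from 0.60 to 0.17 in Yme1l1. The allowance was 246 to 280 bases for CD, 221 to 261 for MD and 227 to 276 for MD+CA. Its part in these values cannot be told apart from that of the group and was not tested. With the 3 libraries of shortest allowance left out, a setting chosen after seeing the data, Clpx remained past the threshold at 1.54 against MD (adjusted p = 0.0394) and 1.25 against CD (adjusted p = 0.0360), and Grpel2 did not (-0.78, adjusted p = 0.107, and -0.85, adjusted p = 0.0509).

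**Figure D5:**
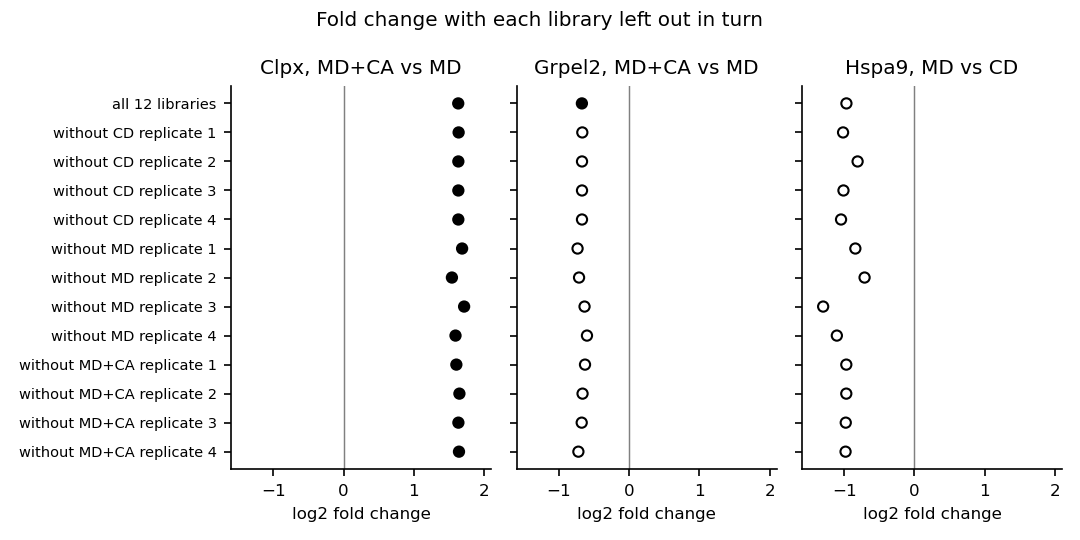
Log2 fold change of Clpx and Grpel2 in MD+CA against MD and of Hspa9 in MD against CD, with all 12 libraries and with each left out in turn. Filled points have an adjusted p under 0.05. Clpx keeps its call in every fit (1.54 to 1.71), Grpel2 keeps its value but loses its call in each (-0.73 to -0.60), and Hspa9 ranges from -1.30 to -0.71 with no call.

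How the reads of a gene divide among its transcripts was not used in choosing the genes. Grpel1 has a single transcript in the files. In 6 of the other 8 genes, Clpp, Lonp1, Afg3l2, Yme1l1, Hspa9 and Trap1, the main protein-coding transcript took a mean of over 92% of the reads. The mean is over the 12 libraries, and Lonp1-201 took 88.2 ± 7.08% in MD. Clpx-201 took 87.3 ± 8.01% for CD, 78.2 ± 15.7% for MD and 89.9 ± 6.65% for MD+CA (SD, n = 4), and most of the rest went to Clpx-202, which is protein-coding as well. Grpel2-201 took 77.5 ± 4.10%, 85.1 ± 6.59% and 77.8 ± 7.06%. Lonp1-202, annotated as a target of nonsense-mediated decay, took 6.05 ± 1.23%, 11.8 ± 7.08% and 5.77 ± 2.46%.

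With 24 comparisons and 4 libraries a group, a share could pass only if at least 14 of them reached the smallest exact p, so the count of calls says little here. None of the 24 comparisons of the main transcript's share (8 genes, 3 comparisons) passed after Benjamini-Hochberg adjustment. The smallest adjusted value was 0.343 (exact two-sided permutation test, p = 0.0286, the smallest that 4 against 4 libraries allow). It belonged to Trap1-201, which took 100% of the reads in all CD and MD+CA libraries and 98.9 to 99.9% in MD. Reads of other Trap1 transcripts were assigned in the 4 MD libraries and in no other.

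Some members varied together. Across the 12 libraries, the log2 CPM of Yme1l1 and Grpel1 correlated at 0.923, Hspa9 and Grpel1 at 0.836, Yme1l1 and Hspa9 at 0.832 and Lonp1 and Trap1 at 0.803. The lowest values were -0.800 between Clpx and Grpel2 and -0.793 between Clpp and Yme1l1. These are descriptions over libraries that share groups, depth and fragment length.

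Among 10655 protein-coding genes, those most like Clpx over the 12 libraries were Ddc (Pearson's r = 0.962), Bmal1 (0.953) and Dtx4 (0.941). Ddc, the decarboxylase of aromatic amino acids, held 24.6 ± 4.99 CPM for CD, 19.1 ± 3.84 for MD and 45.5 ± 8.09 for MD+CA. Bmal1, the activator at the core of the circadian clock, held 1.88 ± 0.871, 1.28 ± 0.507 and 12.7 ± 3.85 CPM. Those most like Lonp1 were Slc7a2 (0.953), a carrier of cationic amino acids, Amy1 (0.940), which has close relatives that may share its reads, and Myh14 (0.929). Those most like Hspa9 were Cetn3 (0.985), Cdc37 (0.978), a partner of cytosolic HSP90, and Iyd (0.978).

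In the rest of the mitochondrial protein quality control, no gene passed the threshold of edgeR in any comparison. This holds for 14 other mitochondrial peptidases, 6 partners and scaffolds of the proteases, 8 genes of the import motor and of matrix folding, 21 translocase subunits of both membranes and 7 substrates of the proteases. At an unadjusted p under 0.05 these 56 genes gave 4 lower in MD against CD and, in MD+CA against MD, 2 higher and 8 lower, and none in MD+CA against CD. With DESeq2 1 passed as lower in MD against CD and 3 as lower in MD+CA against MD, and with limma voom 1 as lower in MD+CA against MD. List medians lay between -0.26 and 0.21 in all comparisons, and the substrates' median was 0.21 in MD+CA against MD.

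Single genes of these lists had these smallest p-values, none past the threshold. Spg7, the paraplegin subunit that pairs with AFG3L2, had a log2 fold change of -0.86 in MD against CD (adjusted p = 0.162). Atp23, a processing peptidase, had -0.94 in MD+CA against MD (adjusted p = 0.0634). Among the substrates, Opa1 had -0.62 in MD against CD (adjusted p = 0.227). Alas1, of haem synthesis, had -1.10 in MD+CA against MD (adjusted p = 0.121) and -0.79 in MD+CA against CD (adjusted p = 0.537). Tomm70a, a receptor of the outer membrane, had -0.79 in MD against CD (adjusted p = 0.133), and Timm9, a small chaperone between the membranes, had -0.61 in MD+CA against MD (adjusted p = 0.104).

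In the import motor Timm44, which tethers HSPA9 to the channel, had -0.36 in MD against CD (adjusted p = 0.234), and Hscb, a cochaperone of iron-sulfur cluster assembly, had -0.59 in MD+CA against MD (adjusted p = 0.186). Of the scaffolds, Stoml2 had -0.27 in MD against CD (adjusted p = 0.438) and Phb2 had -0.38 in MD+CA against MD (adjusted p = 0.335).

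Of 6 factors that signal mitochondrial stress, 1 rose in MD+CA against MD. This was Ddit3, the stress-induced CHOP, at 25.3 ± 4.88 CPM in MD and 58.2 ± 28.9 CPM in MD+CA (log2 fold change 1.20 ± 0.28, adjusted p = 0.0392). It kept the call in 4 of 12 fits that left out 1 library. Eif2ak1, a kinase of the integrated stress response, had -0.53 in MD against CD (adjusted p = 0.165).

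Of 12 HSP70 and HSP90 relatives outside mitochondria, 2 rose in MD+CA against MD. Hspa5, the HSP70 of the endoplasmic reticulum, was at 714 ± 155 CPM in MD and 1596 ± 285 CPM in MD+CA (1.16 ± 0.24, adjusted p = 0.0221). Hspa13, a microsomal relative, was at 9.47 ± 2.73 and 21.3 ± 7.15 CPM (1.17 ± 0.25, adjusted p = 0.0262). The call was kept in 10 of 12 fits that left out 1 library for Hspa5 and in 7 for Hspa13. The list's median was 0.73, and none of the 12 passed in the other comparisons with edgeR. In MD+CA against CD, 10 of the 12 had positive and 2 had negative log2 fold changes. The smallest p there was that of Hspa2, which was lower (-1.05, adjusted p = 0.204). DESeq2 called 4 higher in MD+CA against MD, 1 lower in MD against CD and 1 higher in MD+CA against CD. Whether these differences differ from that of Hspa9 was not tested.

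Of the 13 protein genes of the mitochondrial genome none passed with edgeR in any comparison. At an unadjusted p under 0.05, 9 of 13 were higher in MD than in CD and 9 of 13 lower in MD+CA than in MD, with medians of 0.92 and -0.85. DESeq2 called 4 of 13 in each of these comparisons, and limma voom 1 in MD against CD. The signs of these medians were opposite in both comparisons to those of Clpx, Lonp1, Afg3l2, Yme1l1, Hspa9 and Grpel1. Among those members only Clpx passed the threshold, in MD+CA against MD. Grpel2 and Trap1 were negative in both comparisons, and Clpp had the signs of the medians. The smallest p was that of mt-Co3, at 1.05 in MD against CD (adjusted p = 0.115) and -0.99 in MD+CA against MD (adjusted p = 0.0689).

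Of 7 immediate early genes tested, which respond within minutes to stress and handling, Jun rose in MD against CD (2.87 ± 0.49, adjusted p = 0.0459), a call kept in 3 of 12 fits that left out 1 library. DESeq2 called 6 of the 7 higher there and limma voom 1. Between MD+CA and MD 6 fell, namely Fos (-5.41), Egr1 (-4.74), Junb (-3.20), Ier2 (-3.18), Btg2 (-2.91) and Jun (-2.61). DESeq2 called 7 lower there and limma voom 0. With each library left out in turn, Btg2 and Junb kept the call in 7 of 12 fits and Egr1 in 8. Their summed level, with the untested member included, was 38.7 to 207 CPM for CD, 151 to 1501 CPM for MD and 47.7 to 98.3 CPM for MD+CA. Their part in the member values was not tested.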

How the data were processed

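Poly(A) RNA of 12 mouse liver libraries was quantified by the authors with fastp and Salmon 1.10.3 against GRCm39, per the submitters' processing notes, which also name DESeq2. Options, annotation and strandedness were not given in the sources used here. Each deposited table holds, per the file headers, expected counts per transcript (not normalized), TPM (scaled for length and depth), length and effective length. For 5 to 8% of transcripts, rounded, the effective length exceeded the length, which bears on TPM.

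Expected counts of 147556 transcripts were summed by gene symbol (55836 symbols, of which 226 join several gene IDs) and rounded. Genes were kept by filterByExpr of edgeR 4.0.16 (minimum count 10), libraries scaled with TMM, and group means fitted to all 12 libraries with the quasi-likelihood test (9 residual df, common BCV 0.307). P-values were adjusted over all 13620 genes (Benjamini-Hochberg, threshold 0.05). CPM are TMM-scaled. Likeness used log2 CPM (prior count 2) of genes at a mean of at least 1. The allowance is the median of length less effective length over transcripts above 2000 bases. Correlations used 100000 permutations. Gene fits were tested on simulated data.

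The members and lists were chosen with earlier results of these data known. Named genes were drawn from the 9 members, in each other list without markers the gene of smallest p per comparison and any past the threshold, and the 3 genes most like Clpx, Lonp1 and Hspa9. Some genes of smallest p, such as Tomm20 and mt-Co2 in MD+CA against CD, are given without values. Alternatives included RLE and upper-quartile scaling, DESeq2 1.42.0, limma 3.58.1 (voom), a replicate block and libraries left out. R 4.3.3, Python 3.11.15, numpy 2.4.6, pandas 2.3.3 and scipy 1.17.1 were used. No libraries of a group were alike within sampling noise.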

Additional observations from a re-analysis of the deposited data

Results flagged for a closer look

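In groups of 4 libraries, a highest or lowest value was picked out when its gap to the nearest of the others was above Dixon's 95% critical value for the group's range. Of 126 gene and group combinations 6 were picked out, where chance gives about 1 in 20. Among the 27 of the members, these were Lonp1 in MD+CA replicate 3 (75.1 CPM, the others 138 to 150.3 CPM) and Trap1 in MD replicate 2 (56.5 CPM, the others 99.1 to 105.3 CPM). Timm44 was also low in MD+CA replicate 3 (51.4 CPM, the others 63.3 to 65.6 CPM). Per3 was high in MD replicate 2 (91.1 CPM, the others 56.8 to 58.2 CPM). In CD, Atp23 was high in replicate 1 (3.38 CPM, the others 2.71 to 2.77 CPM) and Hlf was low in replicate 2 (22.0 CPM, the others 32.0 to 32.9 CPM).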

How the results depend on the processing

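Each member had 208 to 13066 reads per library, and the groups hold 4 libraries each. Of 9 members, the number past the threshold in MD against CD was 0 under all alternatives. In MD+CA against MD it was 2, and 1 (Clpx) with no low-count filter, with the transcript length offset, with only the 2 groups compared, without MD replicates 1 and 2 and without the 3 libraries of shortest allowance. With each library left out it was 1 to 2, and the second gene, without MD replicate 3, was Hspa9 and not Grpel2. In MD+CA against CD it was 2, and 1 (Clpx) with the length offset and without those 3 libraries, and 0 to 2 with each library left out. No transcript share passed under any alternative, a count that again says little given the smallest exact p. Over all genes, the number called ranged from 0 to 632 in MD against CD (main 12), from 35 to 1216 in MD+CA against MD (main 378) and from 15 to 397 in MD+CA against CD (main 72). Upper-quartile scaling moved the median log2 fold change of all genes in MD against CD from 0.04 to 0.11.

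Of the members' values, 32 changed sign in 10 results, none of them called, and the cause was not tested. Clpp in MD+CA against CD was 0.0052 with upper-quartile scaling and -0.34 to 0.17 with each library left out. Lonp1 in MD+CA against MD was -0.0167 without the 3 libraries. Grpel1 was -0.0184 in MD+CA against MD without MD replicates 1 and 2, and in MD+CA against CD 0.0736 without the 3 libraries and -0.33 to 0.0761 with each library left out. Trap1 in MD against CD was 0.0159 with voom, 0.10 without MD replicates 1 and 2, 0.10 without the 3 libraries and -0.18 to 0.0732 with each left out. Trap1 in MD+CA against MD was 0.0043 with RLE scaling and DESeq2, 0.0033 with no low-count filter, 0.0042 without mitochondrially encoded genes, 0.0137 with the replicate block and -0.18 to 0.11 with each left out. With each library left out, Trap1 in MD+CA against CD ranged from -0.22 to 8.15e-05, Afg3l2 in MD+CA against MD from -0.0499 to 0.10, Yme1l1 in MD+CA against CD from -0.0609 to 0.22 and Hspa9 in MD+CA against CD from -0.18 to 0.0542.

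The labels share replicate numbers across groups, and same-numbered libraries correlated in their deviations at -0.0769 to 0.349 over 12 pairs, with 9 pairs over 0.1. In 16 of 24 matches of a library to the 4 libraries of another group, the closest was its own number. This is a hint from the data and not the design. Since not every pair was over 0.1, the numbers were not taken as pairs. With the replicate block 0, 2 and 2 members were called in MD against CD, MD+CA against MD and MD+CA against CD. Over all genes the calls were 12, 674 and 154 with the block, and 12, 378 and 72 without it.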
